A study of Xenopus laevis with 6 samples.

Results

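The neural crest genes examined here mark the plate border where the crest arises, guide its migration and direct its differentiation into arch skeleton, pigment cells and glia. They are 47 gene symbols chosen by name, of which 43 occur in the count tables. Xenopus laevis is allotetraploid, and its genes often exist as a pair of homeologs, marked .L or .S after the long or short chromosome set that holds them. A feature belonged to the list when its name without the suffix equalled a symbol, which gave 83 of 44958 features. No feature carried the symbols lmo4, adam13, dlx1 or kit, and RefSeq lists adam13 as a synonym of adam33.L, which is in the list. By role, 18 features belonged to the plate border and early crest, 22 to migration and guidance, 26 to the arches and their skeleton, 11 to pigment cells and 6 to glia and peripheral neurons.

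The question was how these genes respond to knockdown of Neil2, a DNA glycosylase that removes oxidized bases from DNA, given that the study ties Neil2 to cranial neural crest development. Embryos received 40 ng of neil2 Morpholino (MO) or 40 ng of control MO at the 1-cell stage and were collected at stage 23, an early tailbud stage. An MO is a synthetic antisense oligonucleotide, so the knockdown is transient and acts wherever the MO is inherited, not in the crest alone. Each library was made from polyadenylated RNA of 6 pooled whole embryos, with 3 libraries of neil2 MO embryos and 3 of control MO embryos, all from otherwise untreated embryos made by in vitro fertilization.

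Neural crest cells arise at the border of the neural plate, leave the neuroepithelium and migrate along defined routes, where ephrins, semaphorins and chemokines keep streams apart and draw cells forward. In the head they fill the pharyngeal arches, where endothelin signalling from the arch epithelium patterns the lower jaw and Dlx, Hand, Prrx and Alx transcription factors direct skeletal fates. Other crest cells become melanophores, the pigment cells of the frog, or Schwann cells and peripheral neurons.

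The libraries held 11534725 to 24034094 counted reads, and 30822 to 32968 features were detected in each. The raw count of the targeted feature neil2.L was 5, 4 and 15 in neil2 MO embryos, against 3, 4 and 3 in control MO embryos. These counts are low, and by the study's methods its MOs were designed to block translation, so RNA counts cannot check the knockdown. The first principal component, with 40.0% of the variance, separated the replicate 3 libraries of both groups from all others, and the component with 24.6% separated the groups. All 19 features of 10 early crest specifiers (sox10, foxd3, snai2 and others) reached a mean normalized count of 10, so crest RNA was measured in these whole embryos.

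In neil2 MO embryos, 3 of the crest features were lowered and 0 were raised. The lowered features were mycn.L, cdh11.S and ednra.L, at 50.9% to 59.5% of their control MO level in CPM, the counts scaled to a common library total per 1000000 reads. Calls required a DESeq2 adjusted p below 0.1 together with a log2 fold change of more than 0.5 in size. Over all features tested, 1.12% were lowered and 1.17% were raised. At an unadjusted DESeq2 p below 0.05, 17 of the 83 crest features were lower and 0 were higher. Of all 44958 features, 1169 were lower and 1231 higher at that p. These bases are unlike, since 21307 of the 44958 features had a mean normalized count under 10, 8056 of them without any read. Of the 83 crest features 11 were under that count, 2 of them without any read. An adjusted p was available for 71 of the crest features and for 23457 of all features.

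Libraries of equal replicate number deviated together, so a fit with the replicate number as a block was also made. With the replicate block 7 crest features were lowered, the added ones being adam19.S, hand2.L, prrx2.S and ret.L, and 0 were raised. That fit lowered 2.74% and raised 3.14% of all features. Without control MO replicate 1 the unblocked fit lowered 0 crest features, without neil2 MO replicate 1 it lowered mycn.L alone, without any other single library it lowered 3 to 5, and without both replicate 3 libraries it lowered 4. With edgeR in place of DESeq2, mycn.L alone passed, where 0.348% of all features were lowered, and with edgeR and the replicate block 12 crest features passed, where 5.42% were lowered.

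**Figure D1:**
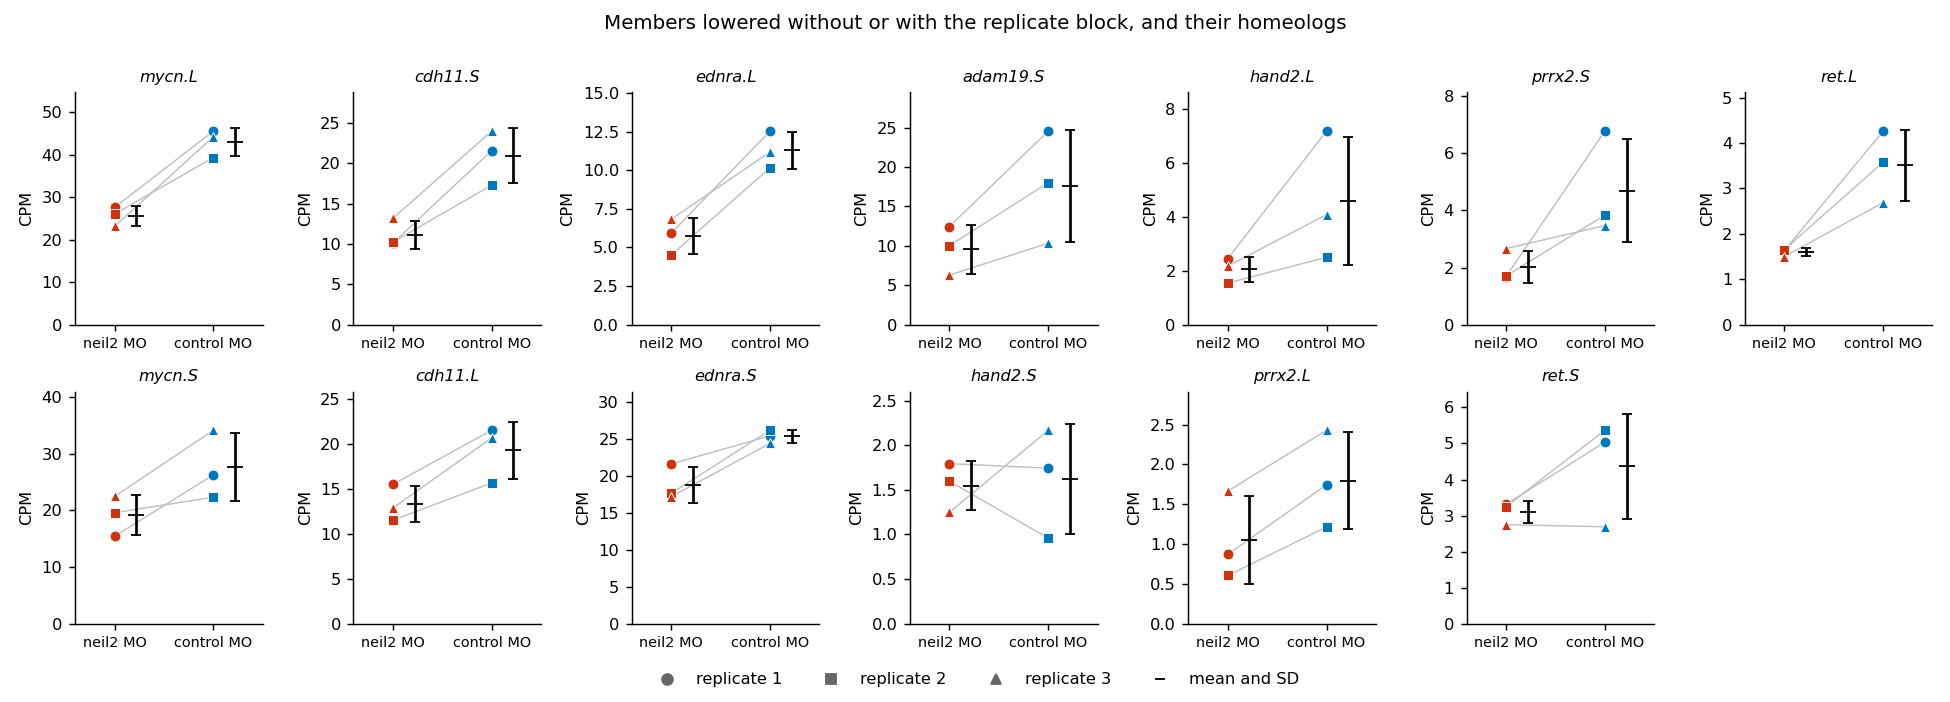
CPM in each library for the 7 features lowered without or with the replicate block (upper row) and for the homeologs present (lower row), neil2 MO left and control MO right in each panel. Points are single libraries, lines join libraries of equal replicate number and bars give mean and SD (n = 3); for mycn.L the neil2 MO values lie between 23.1 and 27.6 CPM and the control MO values between 39.3 and 45.6 CPM.

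Most crest features lay below their control level without being called. Of the 83 features, 2 had no read in any library, 11 had a mean normalized count under 10 (these 2 included), and 72 passed that minimum. Among the 72, 53 had a negative log2 fold change, and their median was -0.26, beside a median of 0.01 and a negative share of 48.3% over the 23651 features at the same minimum. Since the 72 include features admitted through either group, these values describe the list and were not tested. The median was -0.25, -0.26 and -0.27 in the same-numbered pairs 1, 2 and 3. In all 3 pairs 41 of the 72 were lower and 7 were higher, where 5054 and 5569 of the 23651 features were. In CPM, 27 of the 72 had all neil2 MO libraries below all control MO libraries and 0 had them above, where 10.3% and 6.12% of all features did. In counts divided by DESeq2 size factors these numbers were 22 below and 2 above (dlx3.S and erbb3.S), where 7.95% and 8.28% of all features did.

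**Figure D2:**
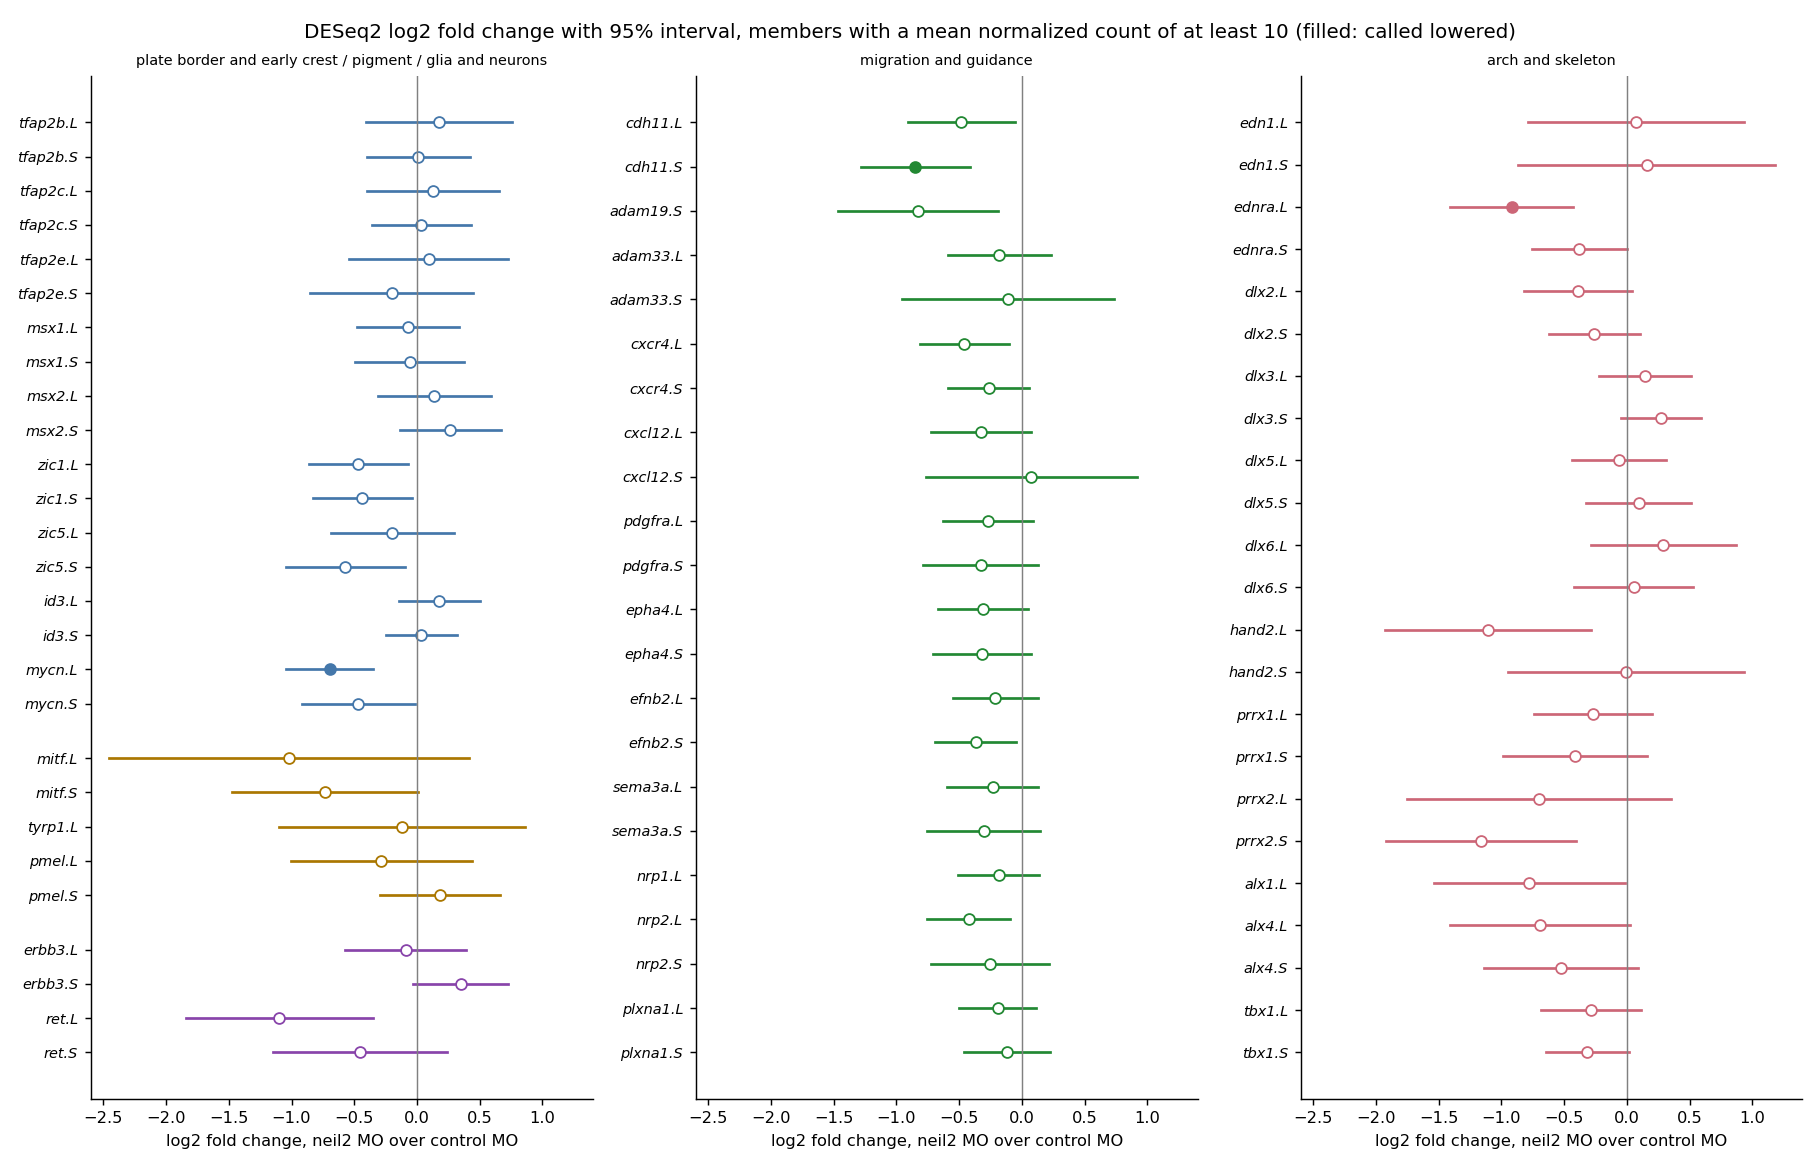
DESeq2 log2 fold change of neil2 MO over control MO with its 95% interval for the 72 crest features with a mean normalized count of at least 10, grouped by role. Filled points are the 3 features called lowered (mycn.L, cdh11.S, ednra.L); 21 of the 22 migration features lie left of 0, while the border features split into 9 negative and 9 positive.

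The roles differed in how the changes were spread. Migration features were negative in 21 of 22 cases (median -0.29), with the exception of cxcl12.S. Arch features were negative in 16 of 23 (median -0.29), pigment features in 4 of 5 (median -0.28) and glial features in 3 of 4 (median -0.27). Border features were evenly divided in the fit of all 6 libraries, with 9 of 18 negative (median -0.02). The sign of that median turned when control MO replicate 2 (0.09), neil2 MO replicate 1 (0.04) or neil2 MO replicate 3 (0.01) was left out. Without neil2 MO replicate 2, 15 of 18 border features were negative (median -0.21), and without control MO replicate 1, 13 of 18 were (median -0.09). The even division of the border role thus depended on single libraries. The pigment median ranged from -0.56 (without neil2 MO replicate 1) and -0.52 (without control MO replicate 3) to -0.095 (without neil2 MO replicate 3) and -0.059 (without control MO replicate 1). Without control MO replicate 2 the migration median was -0.19 and the glial median -0.18. These groups were set side by side without a test between them.

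Among border genes, negative values without overlap between the groups were found in mycn and the Zic family. mycn, a Myc family transcription factor that maintains proliferating and multipotent crest cells, had the largest fall of this role. mycn.L measured 27.6, 26.0 and 23.1 CPM in neil2 MO embryos (25.6 ± 2.27, SD, n = 3), against 45.6, 39.3 and 44.2 CPM in control MO embryos (43.0 ± 3.27, SD, n = 3). The groups did not overlap, and the DESeq2 log2 fold change was -0.69 with a standard error of 0.18 (adjusted p = 0.00935). This call was lost without control MO replicate 1 (adjusted p = 0.108) and without both replicate 3 libraries (adjusted p = 0.191). Its homeolog mycn.S gave 15.4, 19.6 and 22.5 CPM in neil2 MO embryos and 26.3, 22.4 and 34.2 CPM in control MO embryos, a log2 fold change of -0.47 that did not pass (adjusted p = 0.472). Here neil2 MO replicate 3 lay just above control MO replicate 2, so the groups overlapped.

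zic1 and zic5 are zinc finger factors of the dorsal neural plate and its border. None of their 4 copies passed the test, but zic1.L (log2 fold change -0.47), zic1.S (-0.43) and zic5.S (-0.57) had non-overlapping groups, with zic1.L between 18.6 and 23.9 CPM in neil2 MO embryos and between 27.5 and 32.8 CPM in control MO embryos. The other border genes did not share this pattern. id3, an inhibitor of bHLH factors that holds crest cells undifferentiated, drew the most reads of this role. id3.L gave 263, 280 and 297 CPM in neil2 MO embryos and 232, 245 and 293 CPM in control MO embryos (log2 fold change 0.18). id3.S gave 269.8, 258 and 293 CPM in neil2 MO embryos and 287, 260.02 and 285 CPM in control MO embryos (0.03). Neither copy of id3 changed by more than the spread between libraries. The largest positive value belonged to msx2.S, a homeobox factor of the border, with 30.7, 30.8 and 24.8 CPM in neil2 MO embryos and 22.4, 28.7 and 23.4 CPM in control MO embryos (log2 fold change 0.26, adjusted p = 0.814). The 6 tfap2b, tfap2c and tfap2e features and the 4 msx1 and msx2 features lay between -0.20 and 0.26, all with overlapping groups.

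Among migration genes the called change was in a cadherin. cdh11, cadherin-11, is a cell adhesion molecule that crest cells keep while they migrate. cdh11.S measured 10.1, 10.2 and 13.2 CPM in neil2 MO embryos (11.2 ± 1.74, SD, n = 3), against 21.6, 17.3 and 24.0 CPM in control MO embryos (21.0 ± 3.40, SD, n = 3). All neil2 MO libraries lay below all control MO libraries, and the DESeq2 log2 fold change was -0.85 with a standard error of 0.22 (adjusted p = 0.0111). The call was lost without control MO replicate 1 (adjusted p = 0.120), without neil2 MO replicate 1 (0.139) and with edgeR (0.127). cdh11.L gave 15.5, 11.5 and 12.9 CPM in neil2 MO embryos and 21.5, 15.6 and 20.6 CPM in control MO embryos (log2 fold change -0.48, adjusted p = 0.385), groups that were barely apart. With the reads of both copies summed, cdh11 was lowered (log2 fold change -0.67, adjusted p = 0.0258).

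adam19 and adam33 encode membrane metalloproteases of the ADAM family, and ADAM13, the name under which adam33.L is also known, cleaves cadherin-11 in Xenopus crest. adam19.S measured 12.45, 10.01 and 6.28 CPM in neil2 MO embryos (9.58 ± 3.10, SD, n = 3), against 24.5, 18.0 and 10.3 CPM in control MO embryos (17.6 ± 7.12, SD, n = 3). The groups overlapped because both replicate 3 libraries were the lowest of their group, while within each replicate number the neil2 MO library was lower. Accordingly adam19.S did not pass in the unblocked fit (log2 fold change -0.83, adjusted p = 0.247) and was lowered with the replicate block (-0.80, adjusted p = 0.00171). It also passed when control MO replicate 3 (adjusted p = 0.0371) or both replicate 3 libraries (0.0989) were left out. adam33.L, which drew the most reads of this role, gave 121, 163 and 165 CPM in neil2 MO embryos and 138, 194 and 195 CPM in control MO embryos (log2 fold change -0.18, adjusted p = 0.937).

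The chemokine pair that attracts cranial crest was examined in both copies. cxcl12, the ligand Sdf1, is released by the placodes, and cxcr4 is its receptor on crest cells. cxcr4.L gave 36.0, 44.3 and 40.0 CPM in neil2 MO embryos (40.1 ± 4.13, SD, n = 3) and 57.0, 61.1 and 53.6 CPM in control MO embryos (57.2 ± 3.78, SD, n = 3). cxcr4.S gave 59.1, 68.9 and 68.5 CPM in neil2 MO embryos and 78.1, 83.0 and 84.0 CPM in control MO embryos. Both copies of the receptor had groups that did not overlap, and neither passed the test (log2 fold changes -0.46 and -0.26, DESeq2 adjusted p = 0.240 and 0.691). cxcr4.L reached an adjusted p of 0.0154 with the replicate block but stayed inside the fold threshold, and it was lowered with total counts as size factors (log2 fold change -0.51, adjusted p = 0.0973), a scaling that lowered 350 (1.49%) and raised 230 (0.980%) of all features against 262 and 275 with the median-ratio factors. The ligand copy cxcl12.L gave 82.4, 105 and 82.3 CPM in neil2 MO embryos and 103, 140.3 and 109 CPM in control MO embryos (log2 fold change -0.33, adjusted p = 0.681). cxcl12.S was low, at 1.36 to 2.37 CPM in neil2 MO embryos and 1.65 to 2.04 CPM in control MO embryos (0.07).

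**Figure D3:**
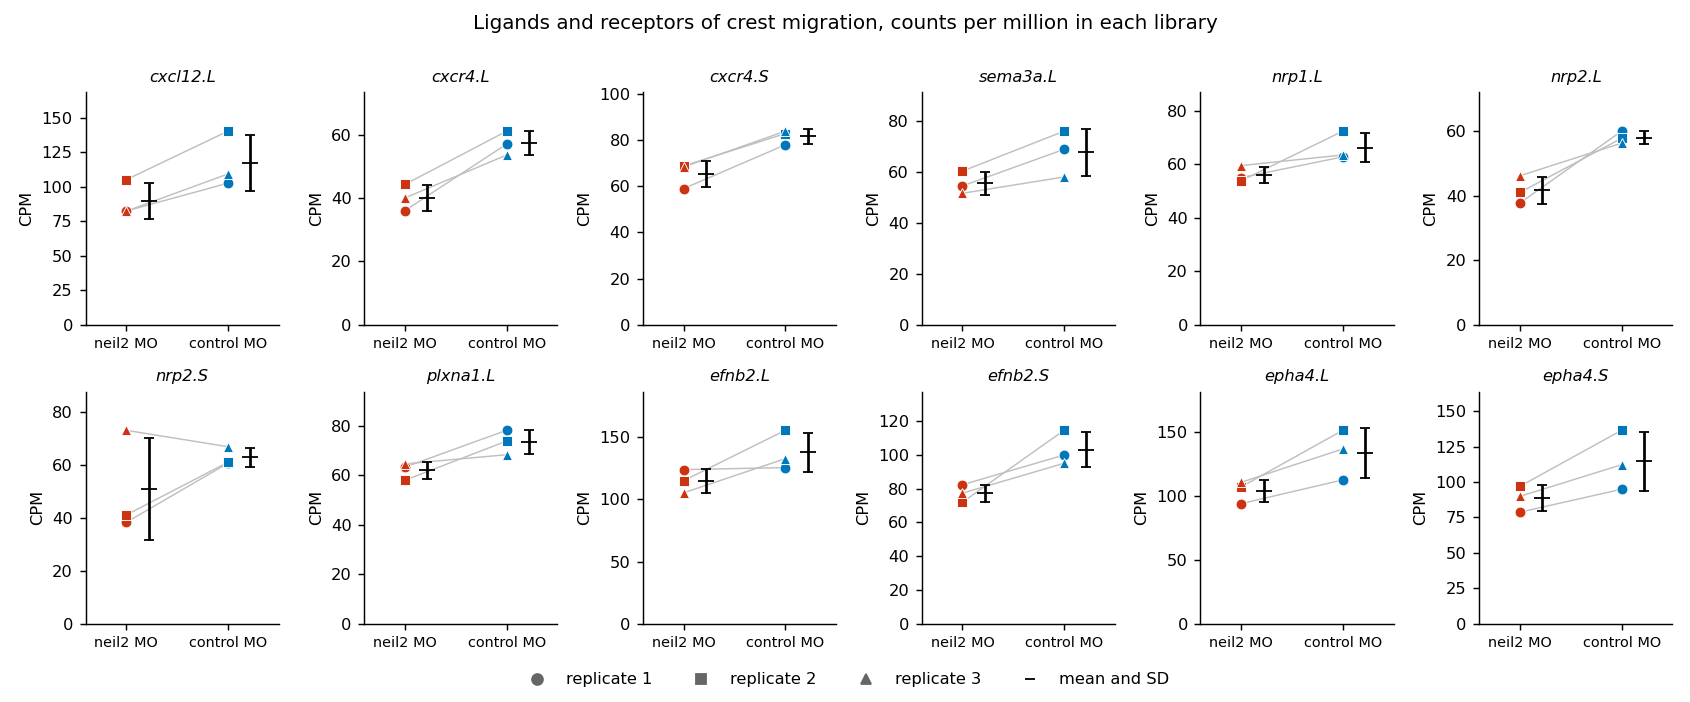
CPM in each library for 12 ligand and receptor features of crest migration, neil2 MO left and control MO right in each panel. Points are single libraries, lines join equal replicate numbers and bars give mean and SD (n = 3). In CPM the groups stay apart for cxcr4.L, cxcr4.S, nrp1.L, nrp2.L, plxna1.L, efnb2.L, efnb2.S and epha4.L. Of these, efnb2.L and epha4.L overlap in counts divided by DESeq2 size factors. For nrp2.S, neil2 MO replicate 3 stands at 73.2 CPM, above all control MO libraries.

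The listed semaphorin and ephrin genes and their receptors, which keep crest cells out of neighbouring territories, all had negative values, none of which passed the unblocked test. sema3a, a secreted repellent, gave 54.4, 60.2 and 51.5 CPM for sema3a.L in neil2 MO embryos and 68.7, 75.9 and 57.9 CPM in control MO embryos (log2 fold change -0.23), and sema3a.S had a log2 fold change of -0.30. Of its neuropilin receptors, nrp2.L gave 37.8, 41.0 and 46.2 CPM in neil2 MO embryos and 60.1, 57.9 and 56.4 CPM in control MO embryos (-0.42, adjusted p = 0.246), with groups that did not overlap. nrp2.S gave 38.4, 41.2 and 73.2 CPM in neil2 MO embryos and 60.8, 61.1 and 67.0 CPM in control MO embryos (-0.26, adjusted p = 0.891). Here neil2 MO replicate 3 ran against the other neil2 MO libraries, and without it nrp2.S was called lowered (-0.59, adjusted p = 0.0601). nrp1.L gave 55.0, 53.8 and 59.5 CPM in neil2 MO embryos and 62.7, 72.4 and 63.5 CPM in control MO embryos (-0.19). The co-receptor plxna1 had log2 fold changes of -0.19 for plxna1.L and -0.12 for plxna1.S, where plxna1.L lay between 58.0 and 64.6 CPM in neil2 MO embryos and between 68.3 and 78.2 CPM in control MO embryos, and plxna1.S between 52.9 and 71.8 CPM in neil2 MO embryos and between 67.0 and 76.6 CPM in control MO embryos.

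The ephrin ligand efnb2 and the receptor epha4 sort crest cells into separate streams in Xenopus. efnb2.L gave 124, 115 and 105 CPM in neil2 MO embryos and 126, 156 and 133 CPM in control MO embryos (log2 fold change -0.21). efnb2.S gave 82.2, 71.9 and 77.3 CPM in neil2 MO embryos and 99.8, 114 and 94.9 CPM in control MO embryos (-0.37, adjusted p = 0.377). Their groups did not overlap in CPM, though for efnb2.L the gap was small. In counts divided by DESeq2 size factors the groups of efnb2.L overlapped, as did those of epha4.L. epha4.L ranged from 93.9 to 111 CPM in neil2 MO embryos and from 113 to 151 CPM in control MO embryos (-0.31), and epha4.S from 78.7 to 97.0 CPM in neil2 MO embryos and from 94.9 to 136 CPM in control MO embryos (-0.32). pdgfra, the PDGF receptor through which crest cells are attracted, had log2 fold changes of -0.27 (pdgfra.L) and -0.33 (pdgfra.S), and pdgfra.S was called lowered when neil2 MO replicate 2 was left out (adjusted p = 0.0951). In sum over the role, the migration features held 1114, 1225 and 1222 CPM in neil2 MO embryos, against 1385, 1628 and 1482 CPM in control MO embryos.

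Among arch genes the L copy of the endothelin receptor was lowered in whole-embryo RNA, and neither copy of its ligand passed the test. ednra receives endothelin-1 on arch crest cells and sets lower jaw identity. ednra.L measured 5.92, 4.51 and 6.82 CPM in neil2 MO embryos (5.75 ± 1.17, SD, n = 3), against 12.5, 10.2 and 11.2 CPM in control MO embryos (11.3 ± 1.196, SD, n = 3). The groups were well apart, and the DESeq2 log2 fold change was -0.92 with a standard error of 0.25 (adjusted p = 0.0187). The call was lost without control MO replicate 1 (adjusted p = 0.250), neil2 MO replicate 1 (0.116) or neil2 MO replicate 2 (0.125), and with edgeR (0.147). ednra.S, the copy with more reads, gave 21.6, 17.6 and 17.1 CPM in neil2 MO embryos and 25.4, 26.1 and 24.4 CPM in control MO embryos (-0.38, adjusted p = 0.503), again without overlap. With both copies summed ednra was lowered (-0.53, adjusted p = 0.0885).

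The ligand edn1 was low in these embryos. edn1.L had raw counts of 46, 65 and 37 in neil2 MO embryos and 70, 34 and 22 in control MO embryos (log2 fold change 0.07, 95% interval -0.78 to 0.93). edn1.S gave 1.74, 0.880 and 1.46 CPM in neil2 MO embryos and 1.60, 1.34 and 0.780 CPM in control MO embryos (0.16, 95% interval -0.86 to 1.18). Both intervals stop short of the ednra.L estimate of -0.92, but they overlap the 95% interval of ednra.L, which was -1.41 to -0.43. Overlap of intervals does not test a difference, and the changes of ligand and receptor were not tested against each other. At this depth the intervals of both ligand copies held falls as well as rises, so the direction of a ligand change stayed undecided. ednrb, the receptor used by pigment and enteric precursors, gave few reads, with ednrb.L between 0.055 and 0.109 CPM in neil2 MO embryos and between 0 and 0.290 CPM in control MO embryos, and ednrb.S between 0 and 0.489 CPM in neil2 MO embryos and between 0.255 and 0.581 CPM in control MO embryos. The raw counts of ednrb.S were 9, 0 and 3 in neil2 MO embryos and 12, 4 and 3 in control MO embryos. A count of 3, the floor used here, corresponds to 0.125 to 0.260 CPM in these libraries, counting error only.

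hand2, a bHLH factor, acts under endothelin signalling in the lower jaw. hand2.L measured 2.45, 1.54 and 2.16 CPM in neil2 MO embryos (2.05 ± 0.463, SD, n = 3), against 7.17, 2.49 and 4.07 CPM in control MO embryos (4.58 ± 2.38, SD, n = 3). No neil2 MO library reached a control MO library, but the control libraries ranged widely, and the log2 fold change of -1.11 did not pass without the block (DESeq2 adjusted p = 0.206). hand2.L was lowered with the replicate block (-1.02, adjusted p = 0.0702) and without control MO replicate 2 (-1.399, adjusted p = 0.0680), and without control MO replicate 1 its log2 fold change was -0.63. hand2.S gave 1.79, 1.60 and 1.25 CPM in neil2 MO embryos and 1.74, 0.958 and 2.17 CPM in control MO embryos, a log2 fold change near 0 with a 95% interval from -0.94 to 0.93.

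prrx2, a homeobox factor of arch mesenchyme, had the largest fall of the role. prrx2.S measured 1.68, 1.71 and 2.66 CPM in neil2 MO embryos (2.02 ± 0.559, SD, n = 3), against 6.78, 3.83 and 3.47 CPM in control MO embryos (4.69 ± 1.82, SD, n = 3). The groups did not overlap, the log2 fold change of -1.17 missed the threshold in the unblocked DESeq2 fit (adjusted p = 0.107), and prrx2.S was lowered with the replicate block (-1.13, adjusted p = 0.0533). It also passed with total counts as size factors (adjusted p = 0.0823) and without control MO replicate 3 (0.0847), neil2 MO replicate 3 (0.0770) or both (0.0820), and its log2 fold change was -0.82 without control MO replicate 1. prrx2.L, at 0.870, 0.605 and 1.66 CPM in neil2 MO embryos and 1.74, 1.21 and 2.43 CPM in control MO embryos, had a log2 fold change of -0.70 (adjusted p = 0.803). The related skeletal homeobox genes prrx1, alx1 and alx4 had negative values in each copy above the count minimum, from -0.27 (prrx1.L) to -0.78 (alx1.L), none of which passed in the unblocked fit. With edgeR and the replicate block alx1.L, alx4.L and alx4.S passed, together with zic5.S and mitf.S.

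The Dlx genes, which give arch crest its dorsoventral identity, did not move in one direction. dlx3, which is also expressed in epidermis, drew the most reads of this role. dlx3.L gave 67.9, 72.8 and 60.1 CPM in neil2 MO embryos and 56.3, 59.6 and 73.2 CPM in control MO embryos (log2 fold change 0.14). dlx3.S gave 97.5, 94.0 and 84.5 CPM in neil2 MO embryos and 78.8, 72.6 and 86.0 CPM in control MO embryos (0.27, adjusted p = 0.653). The largest positive value was that of dlx6.L, with 5.87, 7.48 and 4.95 CPM in neil2 MO embryos and 4.65, 5.94 and 4.94 CPM in control MO embryos (0.29, adjusted p = 0.908), while both copies of dlx2 were negative (-0.39 for dlx2.L and -0.26 for dlx2.S). tbx1, a T-box factor of the arch endoderm and mesoderm, had log2 fold changes of -0.29 (tbx1.L) and -0.32 (tbx1.S), and tbx1.S lay between 26.6 and 29.9 CPM in neil2 MO embryos and between 35.7 and 36.7 CPM in control MO embryos. The cartilage factor barx1 stayed at or near the floor, with at most 0.109 CPM in neil2 MO embryos and 0.433 CPM in control MO embryos over both copies.

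**Figure D4:**
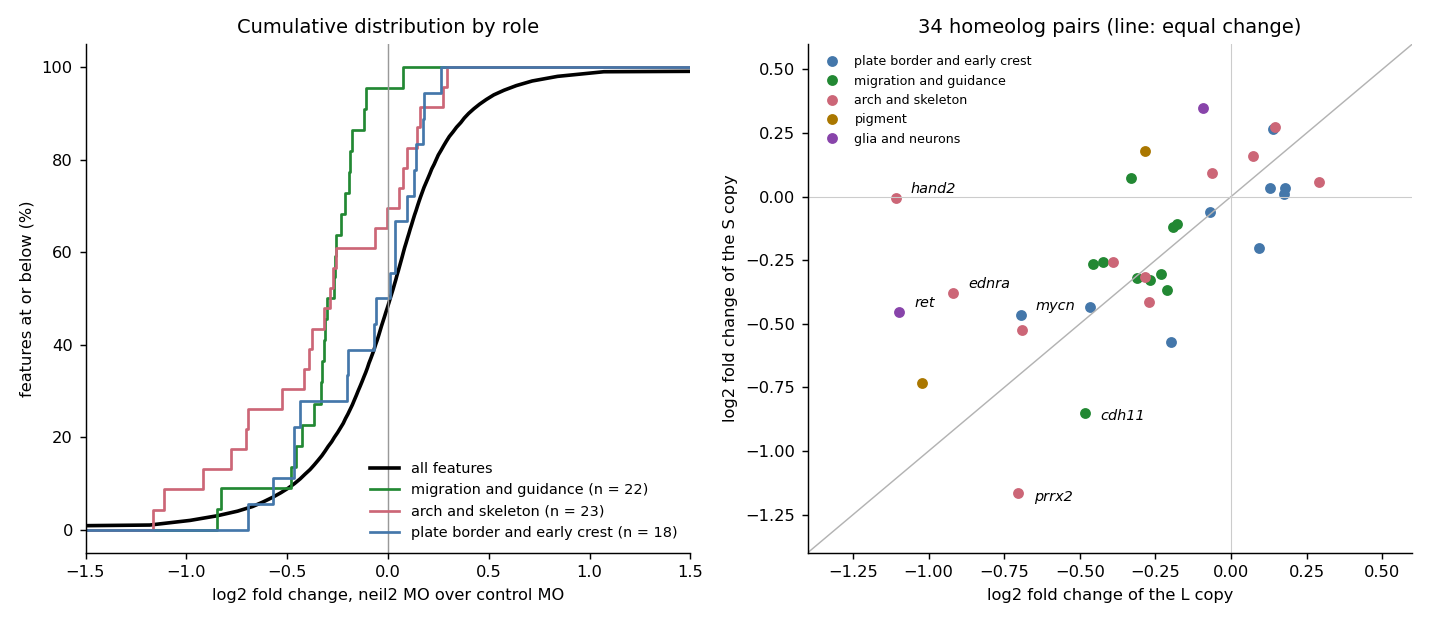
Left, cumulative share of features (%) against log2 fold change of neil2 MO over control MO for 3 roles and for all 23651 features with a mean normalized count of at least 10 (black, drawn at whole percentiles); right, log2 fold change of the S copy against that of the L copy for the 34 crest gene pairs, coloured by role. The migration curve lies left of the black curve with a median of -0.29 against 0.01 for all features, the border curve crosses it, and 22 pairs have both copies below 0.

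Pigment genes other than pmel gave few reads at this stage, before melanophores become visible. mitf, the transcription factor at the head of the melanocyte programme, was low, with 1.79, 1.38 and 2.37 CPM for mitf.S in neil2 MO embryos and 3.20, 2.94 and 3.47 CPM in control MO embryos (log2 fold change -0.73, adjusted p = 0.526). mitf.L, between 0.220 and 0.583 CPM in neil2 MO embryos and between 0.639 and 1.16 CPM in control MO embryos, had a log2 fold change of -1.02 (95% interval -2.46 to 0.41) and too few reads for an adjusted p. Neither mitf copy overlapped between the groups, and neither passed.

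The genes that mitf activates did not follow one direction. pmel, a structural protein of the pigment granule, drew the most reads. pmel.S gave 37.9, 28.2 and 20.7 CPM in neil2 MO embryos and 31.0, 25.7 and 22.7 CPM in control MO embryos (log2 fold change 0.18). pmel.L gave 7.55, 4.95 and 4.08 CPM in neil2 MO embryos and 10.99, 5.43 and 4.42 CPM in control MO embryos (-0.28). In both copies replicate 1 was highest and replicate 3 lowest in either group, so the spread between replicate numbers exceeded the difference between the groups. The melanin enzyme tyrp1.L gave 2.88, 2.04 and 0.874 CPM in neil2 MO embryos and 2.37, 2.68 and 1.39 CPM in control MO embryos (-0.12). dct.L had raw counts of 16, 6 and 0 in neil2 MO embryos and 14, 9 and 5 in control MO embryos. tyr.S, tyrosinase, the first enzyme of melanin synthesis, had raw counts of 24, 7 and 1 in neil2 MO embryos and 4, 4 and 2 in control MO embryos. The count of 24 came from neil2 MO replicate 1 alone, and neither enzyme had enough reads for an adjusted p. tyrp1.S and dct.S had no read in any library.

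**Figure D5:**
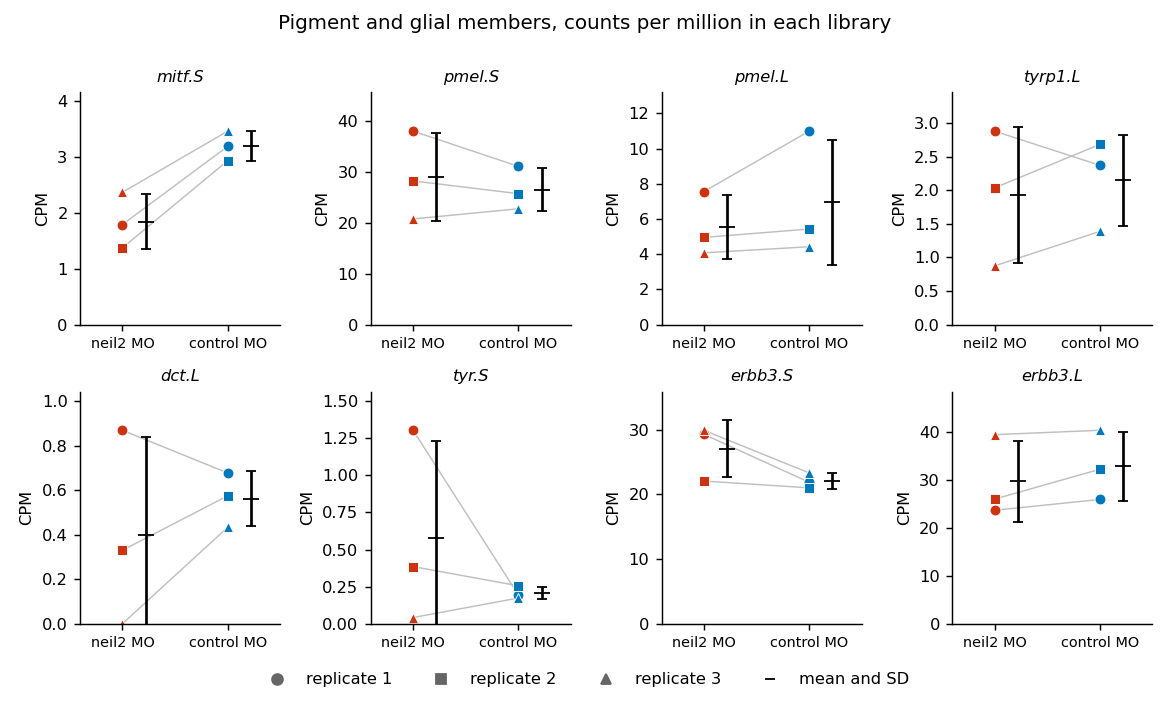
CPM in each library for 6 pigment and 2 glial features, neil2 MO left and control MO right in each panel. Points are single libraries, lines join equal replicate numbers and bars give mean and SD (n = 3, cut off at 0 for dct.L and tyr.S); the mitf.S groups are apart, at 1.38 to 2.37 CPM in neil2 MO and 2.94 to 3.47 CPM in control MO embryos, while pmel and tyrp1.L overlap.

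Of the glial and neuronal genes, ret.L was lowered with the replicate block and no copy of erbb3 passed in either fit. ret, the receptor of GDNF family ligands in enteric and sympathetic precursors, measured 1.63, 1.65 and 1.498 CPM for ret.L in neil2 MO embryos (1.59 ± 0.0830, SD, n = 3), against 4.26, 3.58 and 2.69 CPM in control MO embryos (3.51 ± 0.789, SD, n = 3). The groups did not overlap, and ret.L missed the threshold in the unblocked DESeq2 fit (log2 fold change -1.10, adjusted p = 0.134) and was lowered with the replicate block (-1.07, adjusted p = 0.0879) and with total counts as size factors (-1.15, adjusted p = 0.0923). ret.S gave 3.32, 3.25 and 2.75 CPM in neil2 MO embryos and 5.04, 5.37 and 2.69 CPM in control MO embryos (-0.45, adjusted p = 0.816), and its replicate 3 libraries were level. ret is also expressed in the pronephros and in neurons outside the crest. erbb3, the neuregulin receptor of Schwann cell precursors, gave 29.3, 22.1 and 29.9 CPM for erbb3.S in neil2 MO embryos and 21.9, 21.0 and 23.3 CPM in control MO embryos (0.35, adjusted p = 0.592), the largest positive value of all 72 features. erbb3.L gave 23.7, 26.0 and 39.5 CPM in neil2 MO embryos and 25.9, 32.3 and 40.4 CPM in control MO embryos (-0.09). The myelin gene mpz stayed at or below 0.125 CPM in neil2 MO embryos and 0.0867 CPM in control MO embryos.

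Copies of the same gene were then compared with each other. Of the 34 pairs whose copies both reached a mean normalized count of 10, 22 had both copies negative, 7 had both positive and 5 had opposite signs. No pair had a changed ratio of L to S copy by limma at an adjusted p below 0.1 (0 of 34, beside 0.441% of all 7252 pairs), and the count was also 0 with the replicate block. At an unadjusted p below 0.05, 3 pairs had a lower ratio in neil2 MO embryos, namely ret (log2 ratio difference -0.67, adjusted p = 0.281), hand2 (-1.03, adjusted p = 0.379) and ednra (-0.55, adjusted p = 0.438), against 753 of all pairs. For these genes a difference between the copies in their response was therefore not shown.

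Partner genes of the same processes were counted from lists that hold none of the 47 symbols. The shares over all features, to be read beside these lists and the marker lists below, were 1.12% lowered and 1.17% raised without the block. With the replicate block they were 2.74% lowered and 3.14% raised. Of 30 tested features of other arch genes, 26 were negative (median -0.19) and 1 was lowered, foxf1.L, a forkhead factor of splanchnic and arch mesenchyme (8.26, 9.19 and 8.74 CPM in neil2 MO embryos against 13.9, 15.01 and 14.3 CPM in control MO embryos, log2 fold change -0.67, DESeq2 adjusted p = 0.0852). With the replicate block jag1.S, a Notch ligand of the arches, was lowered as well (-0.78, adjusted p = 0.0340). Its homeolog jag1.L, with more reads, was not lowered in that fit (-0.03, adjusted p = 0.964). Of 61 tested features of other migration genes, 44 were negative (median -0.14) and 0 passed, with 6 lower and 0 higher at an unadjusted p below 0.05, and slit2.S, a repellent, was lowered with the block (-0.55, adjusted p = 0.00277). Other endothelin pathway genes were evenly divided, with 7 of 14 negative (median -0.01) and 0 called, 1 being lower at an unadjusted p below 0.05. Its block call was mef2c.L (-0.70, adjusted p = 0.0277), a factor downstream of the endothelin receptor. Cartilage genes were negative in 10 of 11 (median -0.11) and melanophore genes in 10 of 15 (median -0.23), with 0 called in either list. The cartilage median was -0.36, -0.26 and 0.20 in the same-numbered pairs 1, 2 and 3, and 1 cartilage feature was lower in all 3 pairs. At an unadjusted p below 0.05, 1 cartilage feature was lower, and 2 melanophore features were lower and 1 higher. Of 19 glial features 14 were negative (median -0.13) and fabp7.L, a fatty acid binding protein of glial precursors and of neural progenitors in the brain, was lowered, at 3.42, 3.58 and 3.54 CPM in neil2 MO embryos against 12.0, 5.75 and 9.71 CPM in control MO embryos (-1.32, adjusted p = 0.00318). pmp22.L, a peripheral myelin gene, was lowered with the block (-0.60), while pmp22.S, with more reads, was not (-0.20, adjusted p = 0.351). By edgeR without the block, 0 features of these lists and of the marker lists passed.

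In whole embryos fewer crest cells and less RNA per crest cell cannot be told apart, and many listed genes are also expressed outside the crest. Markers of other tissues were therefore set beside the crest values. Early crest specifiers were negative in 13 of 19 features (median -0.07) with 0 called and 1 lower at an unadjusted p below 0.05, and their summed level was 713 to 855 CPM in neil2 MO embryos and 740 to 935 CPM in control MO embryos. Neural tube markers were negative in 16 of 16 (median -0.18, 0 called, 1 lower at an unadjusted p below 0.05), with a sum of 652 to 731 CPM in neil2 MO embryos and 807 to 833 CPM in control MO embryos. Placode markers were negative in 14 of 16 (median -0.24, 0 called, 3 lower at that p), with 433 to 484 CPM in neil2 MO embryos and 526 to 578 CPM in control MO embryos. Heart and vessel markers were negative in 15 of 16 (median -0.31), with 188 to 219 CPM in neil2 MO embryos and 216 to 289 CPM in control MO embryos, and kdr.S, a vessel receptor, was lowered (log2 fold change -1.198, adjusted p = 0.0986), joined by kdr.L and lmo2.L with the replicate block.

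Muscle markers were negative in 9 of 14 (median -0.13, 0 called, 1 lower at an unadjusted p below 0.05), with 3329 to 3530 CPM in neil2 MO embryos and 3656 to 4325 CPM in control MO embryos. Epidermal markers ran the other way, with 6 of 16 negative and a median of 0.14. Their sum was 18830 to 22500 CPM in neil2 MO embryos and 16934 to 18862 CPM in control MO embryos. In that sum krt5.7.S alone held 8413 to 10626 CPM in neil2 MO embryos and 7277 to 8823 CPM in control MO embryos. The median of the epidermal markers was 0.26, 0.09 and -0.005 in the same-numbered pairs 1, 2 and 3. xepsin.L was the called feature among them, lowered at a log2 fold change of -1.04 (adjusted p = 0.00387), and with the replicate block its log2 fold change was -1.06 without passing (adjusted p = 0.121), whereas has1.S was raised with the block (0.56). The homeolog xepsin.S, with fewer reads, had a log2 fold change of -0.01 in the unblocked fit. In CPM, the summed levels of neural tube, placode and muscle markers lay below every control MO library in all 3 neil2 MO libraries. The same held in CPM for the sums of the listed migration and arch features and of the partner lists for migration, arches and glia. For the listed arch features the gap was small, with 449 CPM in neil2 MO replicate 2 and 455 CPM in control MO replicate 2. For the migration partners it was also small, with 5823 CPM in neil2 MO replicate 2 and 5835 CPM in control MO replicate 1. Total counts as size factors, the scaling of CPM, shifted the log2 fold changes of all features by a median of -0.054. In CPM 10.3% of all features lay wholly below control MO and 6.12% wholly above. Sums were not made in counts divided by DESeq2 size factors, where some single features apart in CPM overlapped. The separation of these sums, placode included, therefore holds for CPM alone. The part of the other tissues in the crest values was not tested.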

How the data were processed

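RNA-seq counts of 6 libraries were analysed, 3 of neil2 MO and 3 of control MO embryos. The authors aligned single-end reads from TruSeq libraries (12 PCR cycles) with STAR 2.5.4b, allowing up to 2 mismatches, against X. laevis v9.2, and deposited raw read counts per gene of the JGI annotation from featureCounts 1.5.1 at default settings. Strand was not used, and multi-mapping reads were not counted, so reads of near-identical homeologs or overlapping genes are uncertain. CPM is the count per 1000000 counted reads of a library, without correction for gene length, so a larger CPM in another gene means more reads and not a higher expression level.

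The main test was the Wald test of DESeq2 1.42.0 (R 4.3.3) with independent filtering and without shrinkage of fold changes, fitted on all 6 libraries, with Benjamini-Hochberg adjustment over all features, the tool and thresholds (adjusted p below 0.1, absolute log2 fold change above 0.5) being those of the study's methods. edgeR 4.0.16 (quasi-likelihood, TMM) was the alternative, and other scalings, filters, thresholds, summed homeologs and left-out libraries were tried. L to S ratios were tested with limma 3.58.1 (moderated by eBayes with a trend) after adding a pseudocount of 0.5 to the normalized counts and taking log2.

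Groups and replicate numbers were taken from the titles, and the study's methods speak of triplicates and embryo batches without saying whether each replicate was a separate clutch, so p-values measure the spread between these libraries. Deviations from the group means correlated between libraries of equal number (r = 0.587, 0.569 and 0.634 over 23651 features), and the replicate block rests on this. No pair of libraries agreed within sampling noise (lowest chi-square per degree of freedom 14.3). Values named in the text are features called without or with the block and their homeologs, the 2 highest in CPM and the largest rise and fall of each role (mean normalized count of at least 50), ligand and receptor pairs, and pigment enzymes. zic1, zic5, msx1, tfap2, mitf, prrx1, alx1, alx4, dlx2, tbx1, barx1, mpz, pdgfra and features of the partner and marker lists were named after their values were seen. The members and lists were chosen with earlier results of these data known. Coordinates and sequences are not given here.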

Additional observations from a re-analysis of the deposited data

How the results depend on the processing

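The 3 lowered crest features (mycn.L, cdh11.S, ednra.L) kept their direction in every alternative. The number of lowered crest features was 1 with edgeR, 7 with the replicate block, 12 with edgeR and the replicate block, 6 with total counts as size factors, and 0 to 5 when single libraries or both replicate 3 libraries were left out. It stayed at 3 with TMM size factors, without independent filtering, at a minimum mean raw count of 10, with summed homeologs, at an adjusted p below 0.05 and without the fold threshold. No crest feature was raised in any of these fits. Apart from adam19.S, hand2.L, prrx2.S and ret.L, the replicate block changed no call of a crest feature. Over all features, edgeR called 83 raised and 83 lowered, DESeq2 with the replicate block 693 and 604, edgeR with the replicate block 997 and 1292, and leaving out libraries gave 142 to 311 raised and 118 to 274 lowered. The share of raised features among all calls was 51.2% in the reported fit and 39.7% with total counts. The crest median of -0.26 was -0.27 with edgeR, -0.28 with edgeR and the replicate block, -0.32 with total counts, -0.30 with summed homeologs and -0.32 to -0.19 with libraries left out.

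Reversed signs were confined, among the 46 named features with reads that were followed, to 11 with small changes or few reads. hand2.S became 0.034 under the DESeq2 block and 0.0031 under the edgeR block, ednrb.L 0.091 under the DESeq2 block, and id3.S -0.019 with total counts. With libraries left out the log2 fold change ranged from -0.26 to 0.39 for hand2.S, -0.0041 to 0.055 for id3.S, -0.047 to 0.38 for pmel.S, -0.56 to 0.19 for pmel.L, -0.33 to 0.078 for erbb3.L, -0.19 to 0.27 for cxcl12.S, -0.29 to 0.35 for edn1.L, -0.11 to 0.37 for edn1.S, -1.17 to 1.10 for ednrb.L, -0.51 to 0.24 for tyrp1.L and -1.74 to 0.14 for dct.L. The causes were not tested.

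At these depths the 95% intervals given for edn1 and mitf.L hold falls as well as rises and do not settle the direction of a change. Features under a mean normalized count of 10 carry no reading.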
